A study of Schizosaccharomyces pombe with 6 samples.

Results

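Cta3 is a P-type ATPase of the fission yeast plasma membrane that exports potassium ions. It was studied here with 6 other cation transport genes, the P-type ATPase genes cta4, pmr1, pma1 and pma2 and the potassium uptake genes trk1 and trk2. These 7 genes were taken by name from the deposited comparison table, out of 6986 counted features, and all 7 were found. The set was selected on the measured fold changes between these strains, that of cta3 above all, so its differences between strains are given as description, without a test.

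A yeast cell keeps a high internal potassium and a low sodium concentration. P-type ATPases are pumps that spend ATP, with a phosphorylated aspartate as intermediate, to move ions against their gradient. In fungi a plasma membrane proton pump builds the membrane potential that drives most other uptake, Trk transporters bring potassium in, and potassium- and sodium-exporting ATPases together with sodium/proton antiporters bring surplus cations out. In fission yeast cta3 is known as a salt stress gene, controlled by the MAP kinase Sty1, the transcription factor Atf1 and the corepressors Tup11 and Tup12.

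Polyadenylated RNA had been sequenced from Schizosaccharomyces pombe in vegetative log-phase growth in YES, a rich medium, at 30 °C, with 3 libraries per strain. The control strain was h+ and rpb1-CTD-WT29::NatMX. The test strain, STF19, was h+, carried the point mutation seb1-G476S and was rpb1-CTD-WT29::KanMX, so both strains carried a marked rpb1 locus and the drug marker differed together with the seb1 allele. Seb1 is an essential termination factor of RNA polymerase II, and the allele came from a search for suppressors of gene repression by long non-coding RNA transcription. The labels give 1 strain number for each group, the series describes the 3 libraries of a group as biological replicates, and no salt or other stress was applied per the labels.

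Totals ran from 21013941 to 27910803 counts per library, and 1 count corresponded to 0.0371 to 0.0445 CPM (the usual depth-scaled count unit, here on TMM-scaled library sizes). Libraries of one strain correlated at 0.991 or above in log2 CPM, and libraries of different strains at 0.964 to 0.974. Of 6046 tested features 55.0% were called different between the strains, 26.7% higher and 28.4% lower in the mutant, at an adjusted p under 0.05 in edgeR's quasi-likelihood test. These were 1613 higher and 1715 lower features, or 1148 and 2287 with plain library totals as scaling. All 7 genes passed the filter on low counts in all 6 libraries. Levels below are CPM as mean ± SD over 3 libraries, fold changes are mutant over wild type with the standard error (SE) of the fit, and in a culture read in bulk more expressing cells and more RNA per cell cannot be told apart.

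The 7 genes spanned a wide range. Per kilobase of annotated exon, pma1, the main plasma membrane proton pump, stood at 1261 ± 181 CPM per kb in the wild type. It was followed by cta4 at 101 ± 3.40, pmr1 at 56.0 ± 7.45 and trk1 at 43.9 ± 2.93 CPM per kb. The potassium transporter gene trk2 stood at 18.1 ± 1.44, cta3 at 1.04 ± 0.114 and pma2 at 0.313 ± 0.0332 CPM per kb. No neighbours in this order overlapped in any library of the wild type, and the mutant kept the same order without overlap, with cta3 at 7.46 ± 0.222 and pma2 at 1.48 ± 0.123 CPM per kb. Exon lengths came from a later annotation than the one counted, so the spacing between genes is approximate. Among 4953 tested protein-coding genes the wild-type level per length of pma1 ranked 164, that of cta3 4851 and that of pma2 4927; in the mutant cta3 ranked 4116 and pma2 4829.

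**Figure D1:**
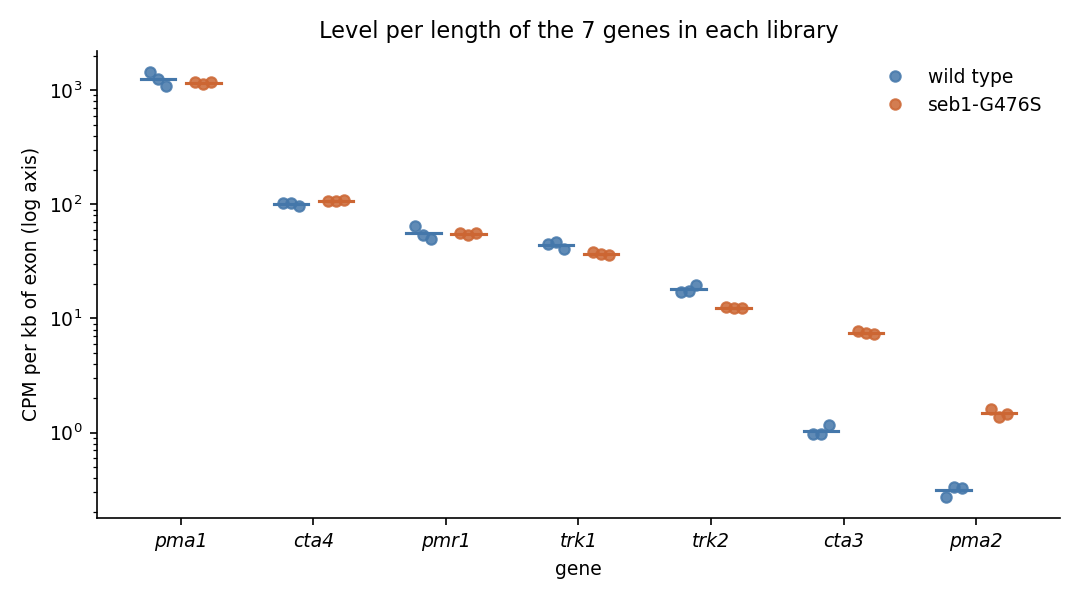
Level per length (CPM per kb of exon, log axis) of the 7 genes in each of the 6 libraries; points are libraries, bars the mean of 3, blue wild type, orange seb1-G476S. The 2 weakest genes, cta3 and pma2, lay higher in all mutant libraries, while pma1, cta4 and pmr1 each lay at a similar level in both strains.

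The potassium exporter gene cta3 (SPBC839.06, chromosome II, protein-coding) was among the weakest coding genes in the wild type and several-fold higher in the mutant. It had 107, 120 and 125 counts in wild-type replicates 1, 2 and 3 and 847, 956 and 800 counts in mutant replicates 1, 2 and 3. In CPM these were 4.59, 4.66 and 5.56 against 36.6, 35.5 and 34.5. The mutant libraries lay close together, with a coefficient of variation of 2.97%, and far above every wild-type library. The mean went from 4.94 ± 0.542 to 35.5 ± 1.06 CPM, a 7.19-fold difference with a log2 fold change of 2.85 (SE 0.122). That value ranked 8 among the 4953 tested coding genes. Of 135 other coding genes with a wild-type level per length within 2-fold of that of cta3, 0 had a larger log2 fold change, and their median was 0.23. Of these, 124 passed the low-count filter in all wild-type libraries, and since cta3 was selected on this fold change its place among them is a description only. In the authors' deposited table the log2 fold change of cta3 was 2.89 (SE 0.183).

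The other gene with a large difference was pma2 (SPCC1020.01c, chromosome III), the minor of the proton pump genes. It had 20, 27 and 23 counts in wild-type replicates 1 to 3 and 117, 116 and 105 counts in the mutant ones, or 0.858, 1.05 and 1.02 against 5.05, 4.31 and 4.52 CPM. The groups did not overlap, although counting error is larger here than for any other of the 7 genes. The mean went from 0.977 ± 0.104 to 4.63 ± 0.384 CPM, 4.74-fold, with a log2 fold change of 2.23 (SE 0.185), rank 20 among coding genes. Of 52 coding genes with a wild-type level within 2-fold of it, 3 had a larger log2 fold change. The median of those 52 was 0.82, but only 29 of them passed the low-count filter in all wild-type libraries. The deposited table of the authors gave pma2 a log2 fold change of 2.28 (SE 0.246).

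Its abundant relative pma1 (SPAC1071.10c, chromosome I) had no such difference. The wild-type libraries held 6458, 5616 and 4839 CPM and the mutant libraries 5227, 5059 and 5321 CPM, so the mutant values lay inside the wild-type range. The log2 fold change was -0.12 (SE 0.096). Without wild-type replicate 3, the lowest of its group, it was -0.22, and without wild-type replicate 1, the highest, it was -0.0079. Per length pma2 amounted to 0.0253 ± 0.00576% of pma1 in the wild type and to 0.127 ± 0.00958% in the mutant, without overlap between the strains. Reads that match both pump genes may be left uncounted or split, which could not be checked in a count table, so the low level of pma2 is uncertain.

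The endomembrane pumps stayed near their wild-type levels. The gene cta4 (SPACUNK4.07c, chromosome I), for a P-type ATPase of the endoplasmic reticulum annotated as calcium-transporting, had 413, 409 and 388 CPM in the wild type, against 429, 423 and 431 CPM in the mutant. The groups just failed to overlap, with a log2 fold change of 0.085 (SE 0.051) that turned to -0.033 when library totals alone were used for scaling. The gene pmr1 (SPBC31E1.02c, chromosome II), for a calcium and manganese pump that the deposited table places at the plasma membrane and that is known from the Golgi in other yeasts, had 245, 205 and 190 CPM against 215, 204 and 212 CPM. The mutant values lay within the wild-type range, and the log2 fold change was -0.019 (SE 0.086). Leaving out 1 library gave -0.0996 to 0.0908, with a sign above 0 without wild-type replicate 1 and without mutant replicate 2.

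Both potassium uptake genes stood lower in the mutant. For trk2 (SPAC1639.02c, chromosome I) the wild-type libraries had 48.7, 49.4 and 56.1 CPM and the mutant libraries 35.8, 35.2 and 34.9 CPM. Every mutant library lay below every wild-type library, and the log2 fold change was -0.54 (SE 0.082). For trk1 (SPAC3F10.02c, chromosome I) the values were 136, 142 and 124 CPM against 116, 113 and 109 CPM, again without overlap, with a log2 fold change of -0.25 (SE 0.064). Per length trk2 amounted to 38.5, 37.4 and 48.5% of trk1 in the wild type and to 33.1, 33.6 and 34.4% in the mutant. The ratio was thus lower in each mutant library than in each wild-type library, with wild-type replicate 3 apart from the other two. The authors' deposited table gave -0.50 for trk2 (SE 0.079) and -0.21 for trk1 (SE 0.101).

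In the fit 4 of the 7 genes were called, cta3 and pma2 higher and trk1 and trk2 lower, where 55.0% of all tested features were called, and the groups did not overlap in 5 of the 7 against 63.9% of all tested features. The median log2 fold change of the 7 genes was -0.019, against -0.0078 over all tested features. A fitted log2 fold change of 2 or more was found in 2 of the 7 and in 1.22% of tested features. Since this contrast chose the genes, nothing is read from these shares. Without wild-type replicate 3, and likewise with library totals as scaling, 5 of the 7 were called, with pma1 as the additional lower gene.

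**Figure D2:**
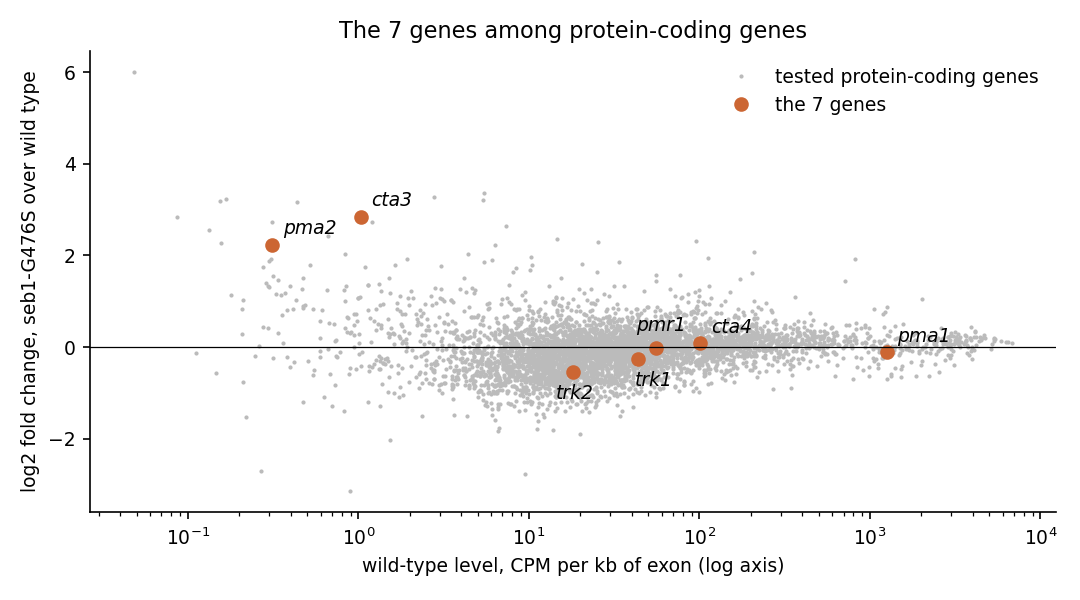
Log2 fold change of seb1-G476S over wild type against the wild-type level per length (CPM per kb of exon, log axis) for tested protein-coding genes (grey) and the 7 genes (orange). At 2.85 and 2.23, cta3 and pma2 lie far above the bulk of weakly expressed genes, and trk1 and trk2 lie slightly below 0.

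Together 11 P-type ATPase genes were read, the 5 above and 6 others found by the wording of their descriptions. Genes described in other words would be missed, so the shares are of these 11 genes. In the wild type pma1 made up 76.3 ± 3.06% of their summed level per length, and in the mutant 71.4 ± 0.457%. The share of cta3 went from 0.0639 ± 0.0135% to 0.458 ± 0.0206%, and among these genes without pma1 from 0.268 ± 0.0222% to 1.60 ± 0.0795%. Even in the mutant cta3 was a small part of the transcripts of these 11 genes.

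Among the 6 other P-type ATPases found, 3 were higher and 1 was lower in the mutant, where 55.0% of all tested features were called. The median log2 fold change was 0.19 against -0.0078 over all features. The vacuolar calcium pump gene pmc1 rose from 401 ± 69.0 to 629 ± 31.5 CPM (log2 fold change 0.65, SE 0.105, edgeR adjusted p = 0.000824). The phospholipid flippase gene dnf1 rose from 246 ± 39.3 to 350 ± 11.4 CPM (0.51, adjusted p = 0.00224 in edgeR). The gene cta5, annotated as a calcium and manganese transporter, was called at 0.29 (edgeR adjusted p = 0.00681), a call lost with library totals as scaling. The flippase gene neo1 was called lower at -0.16 (edgeR adjusted p = 0.0301), and that call was lost when any 1 library other than wild-type replicate 3 was left out. The predicted pumps SPBC887.12 and SPCC1672.11c had log2 fold changes of 0.094 and 0.084 and were not called.

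The remaining genes of sodium and potassium transport differed in their direction. Of 5 listed genes 4 were higher and 1 was lower, where 55.0% of all tested features were called. Their median log2 fold change was 0.31. The gene of the small plasma membrane proteolipid Pmp3 had 417, 605 and 479 CPM in the wild type, against 1097, 1506 and 1503 CPM in the mutant. Each mutant library exceeded each wild-type library, and pmp3 rose 2.74-fold (log2 fold change 1.45, SE 0.15, edgeR adjusted p = 7.11e-05). In budding yeast loss of the related protein makes cells sensitive to cations. The sodium/proton antiporter gene sod22 rose from 81.1 ± 10.8 to 117 ± 4.20 CPM (log2 fold change 0.53, edgeR adjusted p = 0.000977). The main sodium/proton antiporter gene nhe1, also called sod2, rose from 136 ± 8.74 to 170 ± 10.7 CPM (0.31, edgeR adjusted p = 0.00408).

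The antiporter genes were more abundant than cta3 in both strains. Per length nhe1 stood at 76.1 ± 4.88 CPM per kb in the wild type and 94.6 ± 5.96 in the mutant, and sod22 at 30.1 ± 4.01 and 43.4 ± 1.55 CPM per kb. The potassium/proton antiporter gene kha1 fell from 36.8 ± 1.81 to 26.5 ± 1.51 CPM (log2 fold change -0.47, edgeR adjusted p = 0.00218). The gene of Hal4, a kinase that acts on potassium uptake, was called at 0.18 (edgeR adjusted p = 0.0303), but the call was lost with library totals as scaling and without wild-type replicate 2, mutant replicate 1 or mutant replicate 2.

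Calcium genes moved mostly upward where they moved. Of 15 genes of calcium transport and calcineurin signalling 8 were higher, 1 was lower and 6 were not called (6 higher and 3 lower with library totals as scaling). Their median log2 fold change was 0.29. Of all tested features 55.0% were called, 26.7% higher and 28.4% lower. The gene of the calcium sensor Ncs1 had 205, 255 and 274 CPM in the wild type, against 729, 770 and 732 CPM in the mutant, without overlap. It rose 3.04-fold (log2 fold change 1.61, SE 0.0964, edgeR adjusted p = 3.17e-06). The TRP-like channel gene trp1322 rose by 0.54 (edgeR adjusted p = 0.000317), from 35.2 ± 1.05 to 51.2 ± 1.22 CPM. Its relative trp663 was called at 1.74 (SE 0.451, edgeR adjusted p = 0.0091) from only 4, 10 and 26 wild-type counts, against 37, 58 and 44 in the mutant, and the value was 2.70 without wild-type replicate 3. The pump gene pmc1, described above, belongs to this list too.

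The subunits of the calcium-dependent phosphatase calcineurin went in opposite directions. The gene of the catalytic subunit, ppb1, fell from 88.6 ± 0.494 to 71.3 ± 2.96 CPM (log2 fold change -0.31, edgeR adjusted p = 0.00161), while that of the regulatory subunit, cnb1, rose from 81.7 ± 6.06 to 111 ± 2.78 CPM (0.44, edgeR adjusted p = 0.00061). The transcription factor gene prz1, which acts downstream of calcineurin, had 673 ± 217 CPM in the wild type, against 927 ± 71.2 CPM in the mutant, and its groups overlapped (log2 fold change 0.46, edgeR adjusted p = 0.055). Without wild-type replicate 3, the highest of its group, prz1 was called higher at 0.74 (edgeR adjusted p = 7.87e-05). The plasma membrane calcium channel genes cch1 and yam8 were at 0.17 and -0.082 and were not called, although cch1 was called higher without wild-type replicate 1, and yam8 lower with library totals and without wild-type replicate 3.

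The vacuolar proton ATPase, which acidifies the vacuole and drives its cation exchangers, showed mostly small differences, in both directions. Of 14 subunit genes 4 were higher and 2 were lower (1 higher and 4 lower with library totals as scaling). Their median log2 fold change was 0.026, and 55.0% of all tested features were called. The larger differences were vma10 at -0.56 (edgeR adjusted p = 0.00374), vma6 at 0.38 (edgeR adjusted p = 0.000287), vma9 at 0.27 and vma4 at -0.25. The call of vma9 (edgeR adjusted p = 0.0262) was lost with library totals as scaling and without any 1 mutant library, and its value was 0.17 without wild-type replicate 3. The catalytic subunit gene vma1 and the nucleotide-binding subunit gene vma2 were not called, with log2 fold changes of 0.021 and 0.0032, although vma2 was called lower with library totals as scaling.

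**Figure D3:**
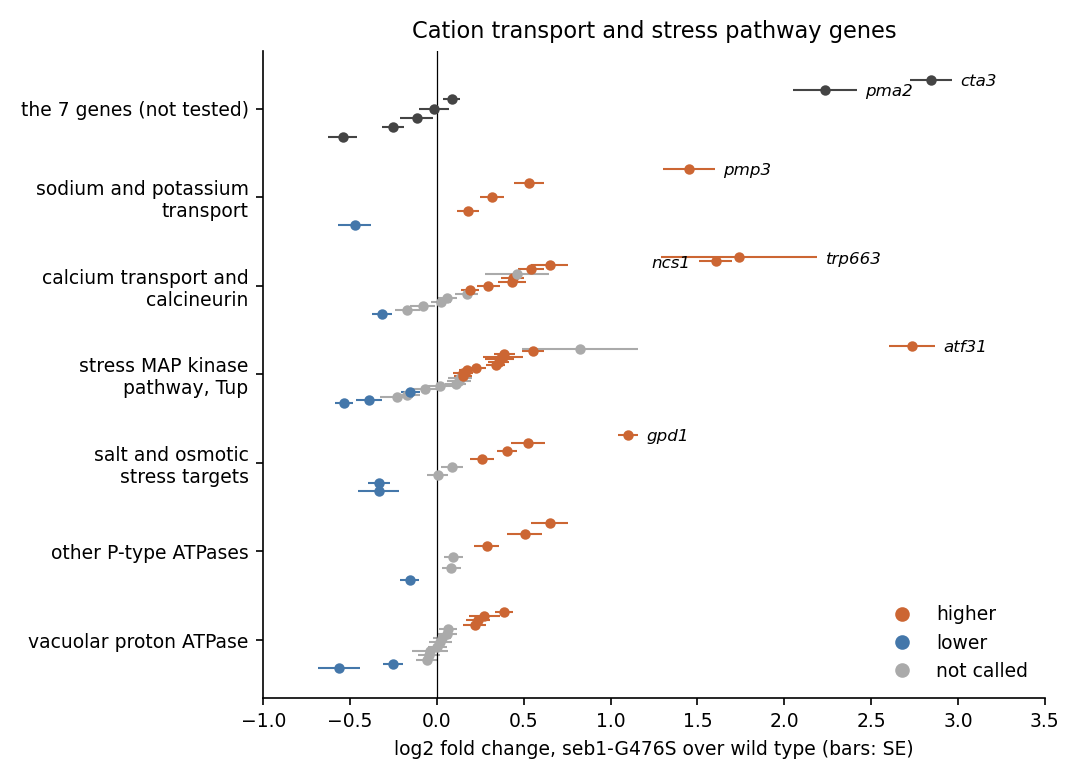
Log2 fold change of seb1-G476S over wild type with its SE (bars) for the 7 genes, given without a test, and for the genes of 6 lists, coloured by the call of the edgeR fit; genes beyond 0.95 are named. Single genes stand out in 4 of the lists, pmp3, ncs1 with trp663, atf31 and gpd1. The vacuolar proton ATPase genes have a median of 0.026 and reach from -0.56 (vma10) to 0.38 (vma6).

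Because cta3 is a target of the stress MAP kinase pathway, a list of genes of that pathway and of related factors was read beside it. Of 22 genes 11 were higher and 3 lower (7 and 6 with library totals as scaling), where 55.0% of all tested features were called. Their median log2 fold change was 0.15, and the number called fell to 9 without mutant replicate 2. The gene of Atf31, a transcription factor of the Atf family, had 2.75, 2.95 and 3.03 CPM in the wild type, against 18.6, 19.3 and 20.3 CPM in the mutant. The libraries of each strain were close together and the strains far apart. It rose 6.67-fold (log2 fold change 2.74, SE 0.131, edgeR adjusted p = 6.67e-07). The deposited description names Atf31 only as a transcription factor, and a part of it in this pathway was not tested.

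The other genes of this list changed less. The MAP kinase gene sty1 fell from 371 ± 10.8 to 256 ± 5.04 CPM (log2 fold change -0.54, SE 0.0511, edgeR adjusted p = 4.72e-05), and the MAP kinase kinase kinase gene wis4 was at -0.39 (edgeR adjusted p = 0.00211). The phosphotransfer protein gene mpr1 rose by 0.55 (edgeR adjusted p = 0.000151). The transcription factor gene atf1, chosen after its value was seen, was at 0.36 (edgeR adjusted p = 0.00104), and the corepressor genes tup12 and tup11, likewise, at 0.22 (edgeR adjusted p = 0.00827) and 0.13, the latter not called.

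The genes listed as other salt and osmotic stress targets of Sty1 and Atf1 did not move as one. Of 8 listed genes 4 were higher, 2 were lower and 2 were not called, where 55.0% of all tested features were called. Their median log2 fold change was 0.17. The gene of glycerol-3-phosphate dehydrogenase, gpd1, which makes the osmolyte glycerol, had 671, 661 and 610 CPM in the wild type, against 1402, 1376 and 1386 CPM in the mutant. It rose 2.15-fold (log2 fold change 1.10, SE 0.0564, edgeR adjusted p = 1.08e-06). The small heat-shock protein gene hsp16 was at 0.53 and the trehalase gene ntp1 at 0.40, with edgeR adjusted p of 0.00176 and 0.000428. The catalase gene ctt1 was called lower at -0.33 (edgeR adjusted p = 0.0339), a call lost without any 1 library other than wild-type replicate 3, and -0.18 without wild-type replicate 1. The glutathione peroxidase gene gpx1 was lower at -0.33 (edgeR adjusted p = 0.00168). One listed gene, gpt1, encodes a glucosyltransferase of glycoprotein folding and no stress target, and it was not called. It was listed by mistake and is still counted among the 8 and in their median.

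The surroundings of the 7 genes were read as the features overlapping each gene and the nearest counted feature on either side, 22 in all. Of these 18 were tested, 8 called higher and 6 lower (5 and 7 with library totals as scaling), where 55.0% of all tested features were called. Their median log2 fold change was 0.11. On the opposite strand within cta3 lies an annotated non-coding RNA, cta3-antisense-1 (SPNCRNA.1374, chromosome II). It had 12.3, 12.6 and 14.2 CPM in the wild type, against 7.99, 8.65 and 9.48 CPM in the mutant. The antisense feature thus lay lower in every mutant library, and it fell by 0.58 on the log2 scale (SE 0.131, edgeR adjusted p = 0.0046). In counts, cta3 amounted to 0.374, 0.370 and 0.392 times its antisense feature in wild-type replicates 1 to 3, and to 4.58, 4.10 and 3.64 times in the mutant ones. In these counts, which are not divided by length, the antisense feature was the larger of the pair in the wild type and the smaller in the mutant. Their order per length was not read.

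Both annotated non-coding features on the cta3 strand at its 5' side were almost without reads. SPNCRNA.318, the nearest counted feature upstream, had 1 count in 1 wild-type library and 2 counts in 1 mutant library, and SPNCRNA.319, which overlaps the start of cta3, had 1 count in 1 mutant library. A read that falls in both SPNCRNA.319 and cta3 may have been left unassigned, so its level is a lower limit. The downstream gene ibp1, a phosphatase gene on the same strand, fell from 51.3 ± 4.99 to 38.8 ± 1.23 CPM (log2 fold change -0.40, edgeR adjusted p = 0.00413).

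At trk2 the overlapping features on the opposite strand lay higher in the mutant. SPNCRNA.630, annotated as an intergenic RNA, overlaps the 3' end of trk2 on the opposite strand. It had 2.45, 2.18 and 2.09 CPM in the wild type, against 3.71, 2.60 and 4.09 CPM in the mutant. It was called higher at 0.62 (SE 0.208, edgeR adjusted p = 0.0278), but not with library totals, in DESeq2, or without wild-type replicate 2, mutant replicate 1 or mutant replicate 3. The feature trk2-antisense-1, inside the gene, had 1, 2 and 5 counts in the wild type and 16, 9 and 7 in the mutant and was too low to be tested in the fit. Which strand setting the authors counted with is not given in the sources used here. For both genes the split of reads between the strands was not tested. The divergent upstream neighbour of trk2, the NuA4 complex gene tra2, rose from 158 ± 23.2 to 309 ± 6.69 CPM (log2 fold change 0.97, edgeR adjusted p = 4.65e-05).

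**Figure D4:**
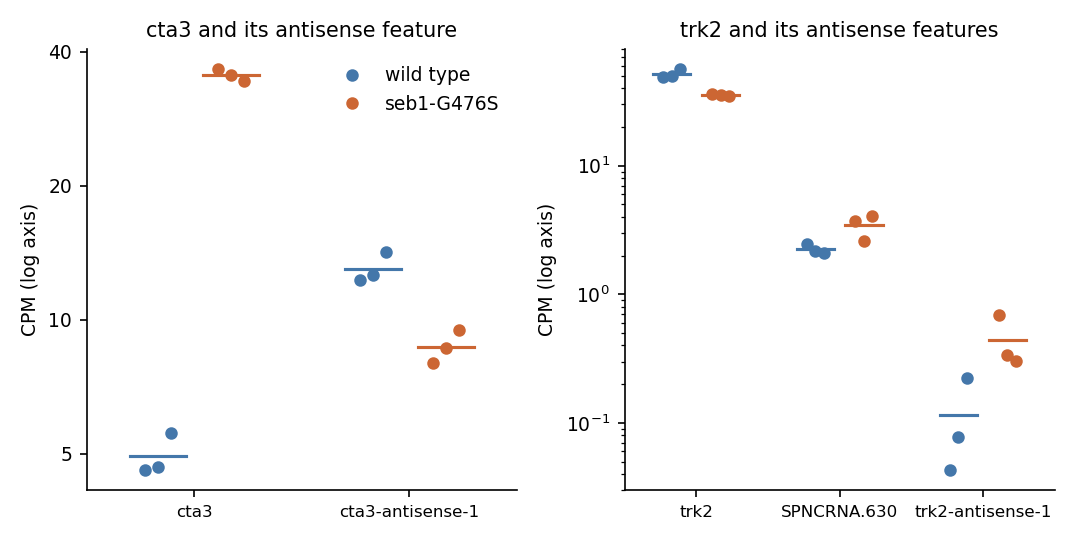
Level (CPM, log axis) of cta3 with cta3-antisense-1 (left) and of trk2 with SPNCRNA.630 and trk2-antisense-1 (right) in each library; points are libraries, bars the mean of 3, blue wild type, orange seb1-G476S. In the mutant cta3 lies higher and its antisense feature lower, whereas trk2 lies lower and the features opposite to it higher. The call of SPNCRNA.630 was lost under 5 alternatives, and trk2-antisense-1 was too low to be tested. The split of reads between the strands was not tested.

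The neighbours of the other genes followed no common direction. Upstream of pma2 the kinetochore gene spc7 fell from 27.1 ± 5.91 to 14.0 ± 1.83 CPM (log2 fold change -0.95, edgeR adjusted p = 0.00129). Downstream of pma2 the ribosomal protein gene rps1501 rose by 0.32 (edgeR adjusted p = 0.00112), and spt2, which overlaps its 3' end on the opposite strand, was at 0.075 and not called. Downstream of pma1 the DNAJ protein gene SPAC1071.09c fell by 0.89 on the log2 scale (edgeR adjusted p = 0.00304), while the non-coding SPNCRNA.944 upstream was not called and SPNCRNA.92, antisense to pma1, had at most 2 counts in a library. Upstream of pmr1 the ubiquitin-like protein gene hub1 fell by 0.56 (edgeR adjusted p = 0.00254), and downstream of it the autophagy gene atg2 was called at 0.21 (edgeR adjusted p = 0.0318).

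At cta4 the overlapping gene tcb3 rose by 0.27 (edgeR adjusted p = 0.00202), the upstream gene dpp2 was called at -0.17 (edgeR adjusted p = 0.0315), and rpb7, at -0.19, was not called (edgeR adjusted p = 0.0531). It was called lower under 5 alternatives, among them library totals as scaling and leaving out wild-type replicate 3 or mutant replicate 1. The calls of atg2 and dpp2 were lost under 5 alternatives each. Around trk1 the genes mcm5, which overlaps it on the opposite strand, and cox6 rose by 0.29 each (edgeR adjusted p = 0.00638 and 0.00244), and grs1 was not called, although it was under 2 alternatives, one of them without wild-type replicate 1. The call of mcm5 was lost with library totals as scaling. Downstream of trk2 the fatty acid elongase gene elo1 rose by 0.36 (edgeR adjusted p = 0.00535).

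To describe which genes resembled cta3, each gene's log2 CPM over the 6 libraries was set to its own wild-type mean and compared by Euclidean distance, among 4706 protein-coding genes of at least 5 CPM in the higher strain. The nearest was atf31 at a distance of 0.308, followed by mug73 at 0.399, which encodes a rhodopsin-family membrane protein and went from 7.44 ± 0.594 to 46.3 ± 2.71 CPM. The phosphate-regulated transporter gene tgp1 followed at 0.75, the kinetochore DASH complex gene dad5 at 0.848 and SPBP8B7.32, annotated as a dubious gene, at 0.873. Like cta3, these genes rest on 2 strains of 3 libraries each, so the likeness is mostly a like size of the difference. In wild-type replicate 3, where cta3 was highest of its strain in CPM, atf31 and mug73 were highest too, while tgp1, dad5 and SPBP8B7.32 were lowest. These orders rest on small differences, partly at low counts. In wild-type replicates 1 to 3 atf31 had 64, 76 and 68 counts and dad5 60, 73 and 50. The orders were not tested, and no shared variation between replicates is read from them.

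**Figure D5:**
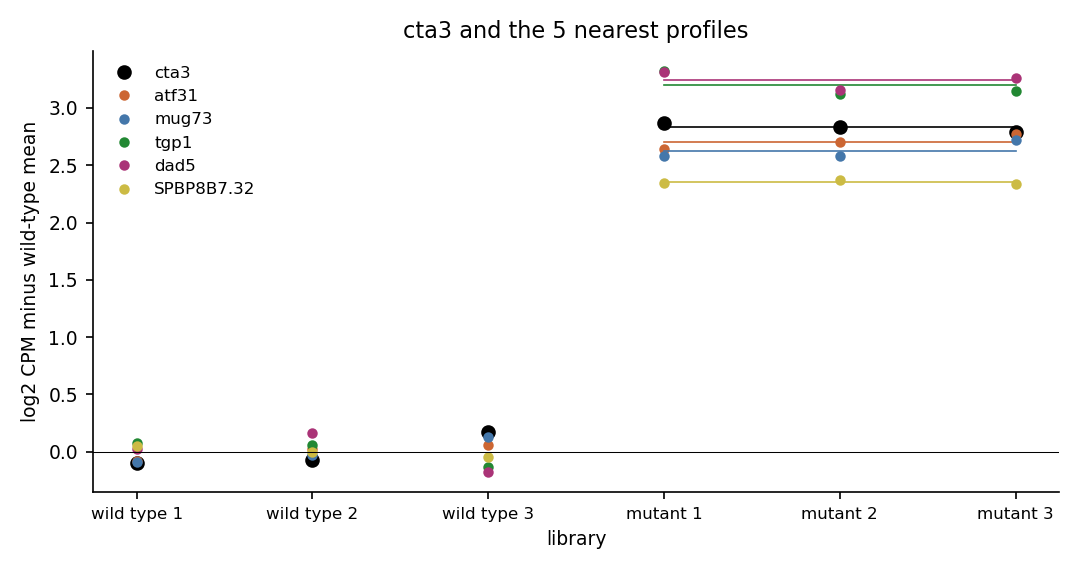
Log2 CPM minus the gene's wild-type mean in each of the 6 libraries for cta3 (black) and the 5 genes with the nearest profiles; horizontal lines are the means of the 3 mutant libraries. All 6 genes lie near 0 in the wild type and between about 2.35 and 3.3 in the mutant, with atf31 and mug73 just below cta3.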

How the data were processed

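Counts per annotated feature had been deposited by the authors as raw whole numbers for the 6 libraries, per the file headers. Build ASM294v2, HTSeq 0.10.0, HISAT2 2.1.0, DESeq2 and SAMtools stand in the submitters' processing notes. Strand option and annotation release are not given in the sources used here. The comparison table deposited by the authors holds log2 fold changes with standard errors, a test score, p-values and group averages as a normalised signal; only fold changes and standard errors are quoted. Its libraries are not stated, so its values need not rest on the same 6 libraries.

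The table had 6987 rows; 1 identifier on 2 rows was summed, leaving 6986. edgeR 4.0.16 (R 4.3.3) ran the quasi-likelihood test with TMM scaling, filterByExpr (minimum count 10), two-sided, Benjamini-Hochberg over 6046 features, 4 residual degrees of freedom. SE was computed as fold change (log2) divided by the square root of F. Feature type, order and exon length came from the RefSeq annotation of ASM294v3 (6833 identifiers matched directly, 13 by synonym, 140 not), so no coordinates or sequences are given. The procedure was checked on simulated data with far fewer changed features than were called here. That check does not measure the error rate in these data. DESeq2 1.42.0, other scalings, no filter, a replicate block and leaving out each library were tried.

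The members and lists were chosen with earlier results of these data known. Genes named are the 7, up to 4 called genes per list by size of change, the features beside each, and the 5 profiles nearest to cta3; further ones were chosen after their values were seen. The list name rcn1 matched no row, and sod2 was read as the antiporter gene nhe1.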

Additional observations from a re-analysis of the deposited data

How the results depend on the processing

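For the 7 genes, no called one changed direction under any alternative tried. Scaling by library totals moved the median log2 fold change of all features by -0.118 and took higher calls from 48.5% to 33.4% of all calls; the log2 fold change was then 2.725 for cta3, -0.0328 for cta4, -0.37 for trk1 and -0.663 for trk2, which, apart from cta4, keeps their direction. Leaving out 1 library gave 2.80 to 2.93 for cta3 and 2.15 to 2.29 for pma2, 2522 to 3512 calls over all features, 4 to 5 called among the 7, and 9 to 16 calls in the stress MAP kinase list. Same-numbered libraries of the strains deviated together with correlations of 0.357, 0.0585 and 0.263. Each wild-type library deviated most like the mutant library of its own number, and the reverse held for mutant replicates 1 and 3 but not 2. The fit above took no pairs, and whether the numbers mark a shared batch was not tested. With the number as a replicate block 3906 features and 4 of the 7 were called. So were prz1, cch1, rpb7 and grs1, which were not called without it. DESeq2 called 3225 features and 4 of the 7. The levels of pma2, trp663 and trk2-antisense-1 are limited by depth.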
